A study of Mus musculus with 13 samples.

Results

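A set of 4 stretches of the mouse genome, rich in repeated gene families, was examined because they hold unusually many transposon insertion sites in 1 library. In GRCm38 coordinates they are chr2:177000001-178000000, chr4:145000001-148000000, chr8:19000001-21000000 and chr13:65000001-67000000, here called the chromosome 2, 4, 8 and 13 windows, 8 Mb in all. Their members are the insertion sites of the plasmid pool inside these windows, where deposited positions within 10 bp of each other count as 1 site. There were 382 such sites, made from 385 positions, of 31146 sites in the library. The windows were chosen for their number of positions, so their density is described and not tested.

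All libraries came from F123, a mouse embryonic stem cell line derived from a cross of CAST and 129 mice, and insertions were found by transcribing purified genomic DNA with T7 RNA polymerase starting at a T7 promoter carried by a Sleeping Beauty transposon and sequencing the RNA across the transposon end. The plasmid pool is of wild type genotype, and its transposons jumped from transfected plasmids present in many copies. The remobilized pool is also wild type, and its transposons jumped again out of the parental line after Sleeping Beauty expression; the control is wild type with no transposon, and the 9 clones are single lines of rad21-dTag genotype sequenced in another batch. The parental line was not analysed here, and each group had 1 library, so every test below compares sites of these libraries and not conditions.

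Sleeping Beauty is a cut-and-paste DNA transposon that inserts at TA dinucleotides with little other sequence preference. C2H2 zinc finger genes, many of which carry a KRAB domain and repress retrotransposons, have multiplied in rodents as tandem clusters of near-identical copies, and the fingers within a gene are themselves repeats joined by a conserved linker. Beta defensins, small antimicrobial peptides, and the vomeronasal receptors of the Vmn2r family also lie in clusters. A short read from such a cluster can match several copies, so the position given to it depends on how an aligner treats ties. Coordinates and copies here are those of the reference, and how many copies F123 carries was not measured.

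The sequences around 8 window sites show what this repetition looks like at the base level. Each is 50 bases centred on the site, read 5′ to 3′ on the site's strand from GENCODE M21 transcripts and RefSeq promoters, with the TA nearest the site in capitals. The first 6 are 3 pairs of sites whose stretches are identical, the next is a site whose stretch is unique among annotated exons and promoters, and the last is a coding exon of a zinc finger gene.
Gm14404 (chr2:177420575-177420624, plus strand): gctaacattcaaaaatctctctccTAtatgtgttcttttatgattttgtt
Gm14324 (chr2:177736979-177737028, minus strand): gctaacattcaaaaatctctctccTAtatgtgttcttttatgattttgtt
AC144733.1 (chr13:65731155-65731204, minus strand): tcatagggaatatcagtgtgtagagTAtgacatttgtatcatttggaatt
AC163660.1 (chr13:66812391-66812440, minus strand): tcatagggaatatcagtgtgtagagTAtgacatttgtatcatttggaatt
Vmn2r-ps100 (chr13:65946028-65946077, minus strand): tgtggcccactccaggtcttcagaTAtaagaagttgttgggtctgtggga
Vmn2r-ps106 (chr13:66685344-66685393, plus strand): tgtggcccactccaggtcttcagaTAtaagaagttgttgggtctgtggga
Gm36445 (chr13:65250036-65250085, plus strand): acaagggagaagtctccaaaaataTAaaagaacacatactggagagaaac
Zfp970 (chr2:177475237-177475286, plus strand): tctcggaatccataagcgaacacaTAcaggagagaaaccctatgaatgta

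The 2 identical sites on chromosome 2, in exons of the zinc finger pseudogenes Gm14404 and Gm14324, lie 316.4 kb apart on opposite strands. Their stretch occurs 4 times among annotated exons and promoters, and the known sequence around the 2 sites is identical over 877 bases. The AC144733.1 and AC163660.1 sites lie 1.08 Mb apart, with 198 identical bases, and the middle 30 bases of their stretch occur 7 times, all in the chromosome 13 window. The 2 vomeronasal receptor pseudogene sites, in Vmn2r-ps100 and Vmn2r-ps106, lie 739.3 kb apart, with 150 identical bases, and their middle 30 bases occur 8 times, again all in that window. Each of these 6 sites had 1 read. Whether each pair reflects 2 insertions or 1 insertion whose reads were placed at 2 copies cannot be told apart from these files.

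The depth of the plasmid pool was 78338 reads, of which 63031 had a position, whereas the remobilized pool had 2619 and 2116. The control and the 9 clones had 0 sites in the windows. The control held 1 read and the clones between 1 and 26 sites each, so these zeros set no useful background. At this depth the median window site had 1 read, and reads carry no molecular identifiers, so intervals cover counting error only.

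The chromosome 4 window held the most sites, 173 in 3 Mb, followed by 99 in the 2 Mb of chromosome 8, 64 in the 2 Mb of chromosome 13 and 46 in the 1 Mb of chromosome 2. Per Mb these are 57.7, 49.5, 32.0 and 46.0 sites, against 11.8, 10.7, 13.1 and 13.5 in the flanking sequence, which reaches 5 Mb on each side except above the chromosome 2 window, where it stops after 4.00 Mb at the last annotated gene. Autosomes outside the windows held 12.1 sites per Mb. All 8 of the 1 Mb bins in the windows held at least 24 sites, which is 2 times the median bin, as did 1.55% of 2394 autosomal bins. Since the rule used this contrast, nothing is read from it. The most populated was the upper bin of chromosome 8, from 20000001 to 21000000, with 73 sites, and the least was the bin below it, with 26.

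Sites with 2 or more reads numbered 23.0 per Mb on chromosome 4, 11.0 on chromosome 2, 10.0 on chromosome 8 and 8.50 on chromosome 13. Their flanks held 6.50, 7.33, 5.40 and 7.10 such sites per Mb, and all autosomes outside the windows, flanks included, 6.59. Counting these sites alone, 4 of the 8 bins reached 2 times the median bin, beside 5.68% of all bins. Those 4 were the 3 bins of chromosome 4, which ranked 3, 4 and 5 of all bins, and the upper bin of chromosome 8, which ranked 37. The chromosome 2 bin ranked 137, the chromosome 13 bins 377 and 590, and the lower chromosome 8 bin 1133. The lower chromosome 8 bin held 6 such sites, the median of all bins. These sites are among those that chose the windows, so the ranks are a description.

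**Figure D1:**
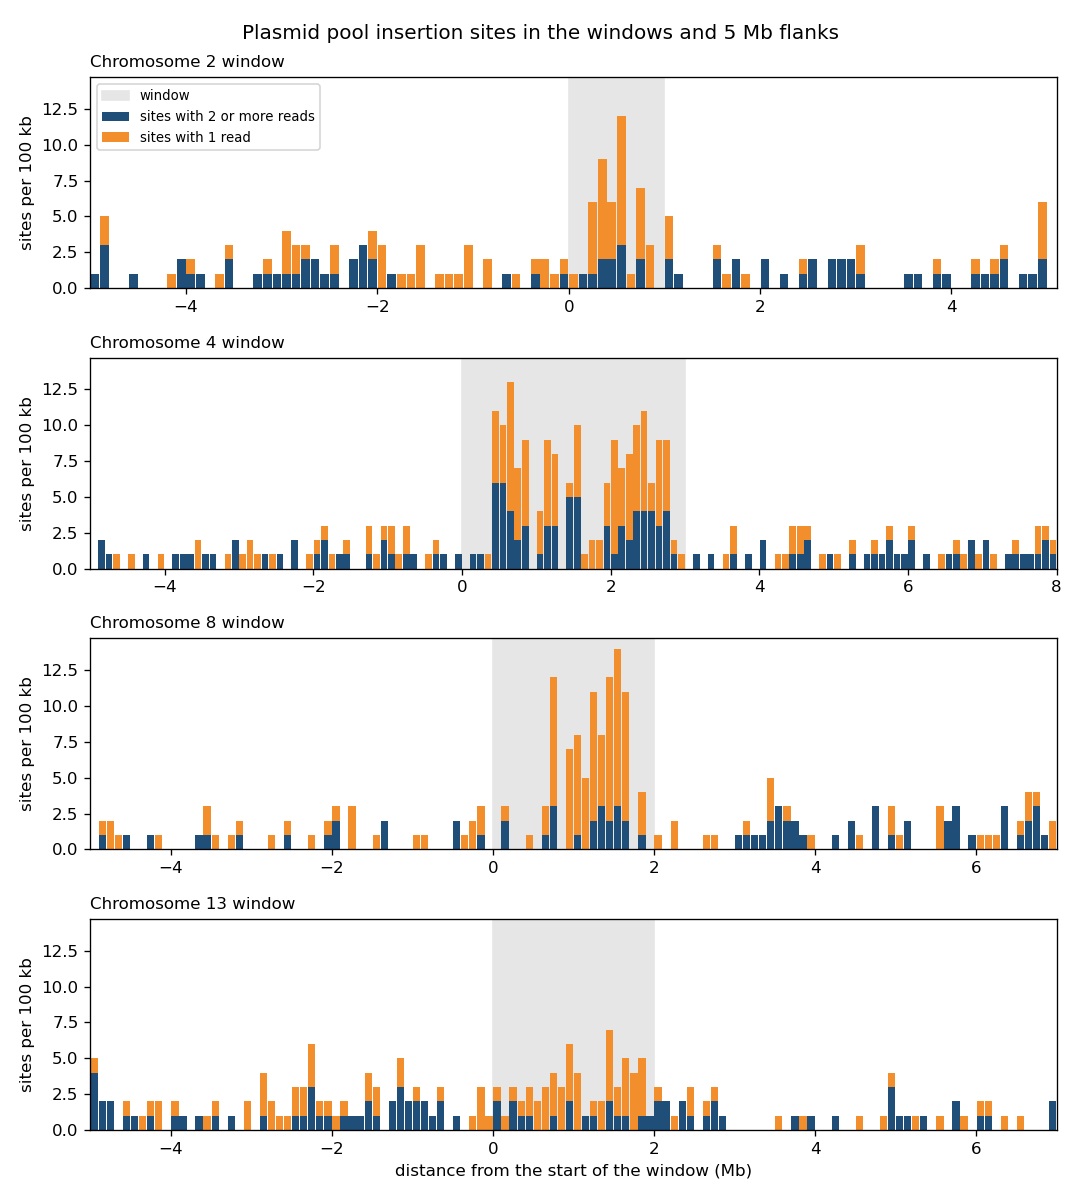
Insertion sites of the plasmid pool per 100 kb (vertical axis) against the distance from the start of each window in Mb (horizontal axis), stacked as sites with 2 or more reads (blue) and sites with 1 read (orange), with the window shaded. The tallest bins hold 12, 13, 14 and 7 sites on chromosomes 2, 4, 8 and 13, and in the chromosome 8 window the first 7 bins hold at most 3 each.

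Within the windows the sites formed blocks. Bins of 100 kb with at least 5 sites held 40 of the 46 sites on chromosome 2, between 177200001 and 177800000, and 158 of 173 on chromosome 4, between 145400001 and 147800000. On chromosome 8 such bins held 88 of 99 sites, all between 19700001 and 20700000. On chromosome 13 only 4 of 20 bins reached 5 sites, and they held 23 of 64 sites, so this window was the most even. In the flanks, 3 of 91 bins held 5 or more sites on chromosome 2, 0 of 100 on chromosome 4, 1 of 100 on chromosome 8 and 3 of 100 on chromosome 13. Neighbouring window sites lay a median of 9.69 kb apart (quartiles 2.62 and 19.9 kb), and flank sites 56.1 kb. The median was shortest on chromosome 8, at 5.85 kb, then 7.95 kb on chromosome 4, 10.7 kb on chromosome 2 and 18.0 kb on chromosome 13. Spacing follows from density and is not a separate result.

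Window sites carried fewer reads than flank sites. Of the 382 window sites, 265 had 1 read, 77 had 2, 21 had 3, 13 had 4, 1 had 5 and 5 had 6 or more. The 478 flank sites divided into 222, 161, 30, 41, 9 and 15 over the same classes. The share with 1 read was 69.4% (95% exact Clopper-Pearson interval 64.5 to 74.0) in the windows and 46.4% (41.9 to 51.0) in the flanks, a difference of 22.9 points (two-sided Fisher's exact test, Benjamini-Hochberg adjusted p = 7.58e-11 over 4 windows and the pooled set). On all autosomes outside the windows, flanks included, it was 45.7%. The windows were chosen on positions whatever their reads, but a stretch rich in 1-read positions enters such a choice more easily, so this measure is not wholly independent of it.

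Each window departed from its own flanks in the same direction. Chromosome 8 had the highest share, 79.8% of 99 sites against 49.5% of 107 in its flanks (Fisher's exact test, adjusted p = 1.52e-05). By the same exact test, chromosome 2 had 76.1% of 46 against 45.9% of 122 (adjusted p = 0.000611), and chromosome 13 had 73.4% of 64 against 45.8% of 131 (adjusted p = 0.000611). Chromosome 4 had the lowest, 60.1% of 173 against 44.9% of 118 (exact test, adjusted p = 0.0120). In the exact test the chromosome 4 difference missed the threshold when sites within 1 kb were merged (8.66 points, adjusted p = 0.172), with flanks of 2 Mb (9.14 points, adjusted p = 0.262) and for the share with 2 or fewer reads (3.00 points, adjusted p = 0.542). In the exact test that of chromosome 2 also missed it with flanks of 2 Mb (20.3 points, adjusted p = 0.0687) and for 2 or fewer reads (12.6 points, adjusted p = 0.0885), and neighbouring sites may not be independent.

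**Figure D2:**
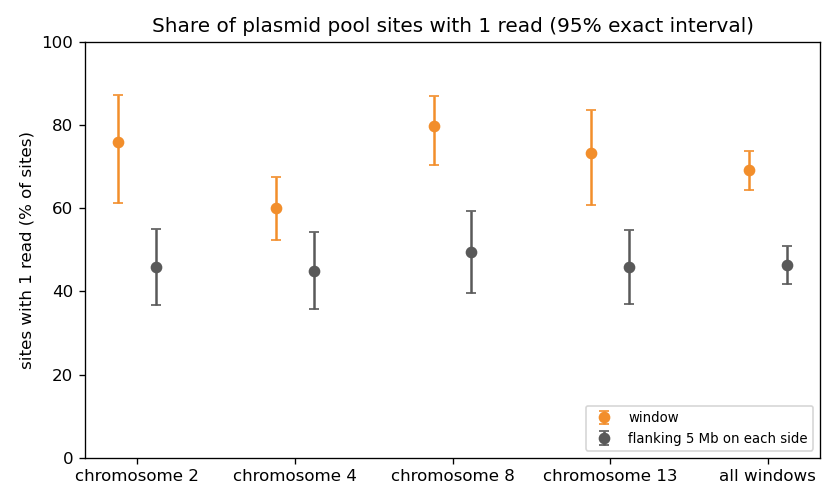
Share of plasmid pool sites that had 1 read (vertical axis, percent) in each window (orange) and in its flanks (grey), and over all windows, with 95% exact intervals over sites. The window point is above the flank point in each case, from 60.1% on chromosome 4 to 79.8% on chromosome 8, while the flanks lie between 44.9% and 49.5%.

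Among 144 autosomal 1 Mb bins with at least 20 sites, the 8 window bins ranked 4, 6, 7, 8, 9, 18, 29 and 34 by their share of 1-read sites. The 2 chromosome 8 bins (80.8% and 76.9%), the chromosome 2 bin (76.1%) and the 2 chromosome 13 bins (76.5% and 70.0%) came before the 3 of chromosome 4 (63.9%, 58.3% and 56.6%). The median of the other bins was 44.5%, but the ranking is not theirs alone: the first place went to a bin of chromosome 14 starting at 5000001, with 93.1% of 29 sites, and ranks 2, 3 and 5 to bins of chromosomes 7 and 14 with 81.0%, 81.0% and 80.0%.

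On the plus strand lay 193 of 382 window sites, 50.5% (45.4 to 55.6), which did not differ from equal shares (two-sided exact binomial test, adjusted p = 1). The shares were 47.8% on chromosome 2, 49.7% on chromosome 4, 47.5% on chromosome 8 and 59.4% on chromosome 13, with adjusted p between 0.843 and 1. In the flanks the plus strand held 268 of 478 sites, 56.1% (51.5 to 60.6), an interval above equal shares, and the difference between windows and flanks was not tested. Where a site lay in genes of 1 strand only, 73 of 147 window sites (49.7%, 41.3 to 58.0) were on the strand of the gene, beside 117 of 250 flank sites (46.8%, 40.5 to 53.2). Neighbouring window sites shared a strand in 54.2% of 378 pairs, and flank sites in 51.7% of 470.

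The windows contain 308 GENCODE genes, of which 84 are protein-coding, 181 are pseudogenes and 33 are lincRNA genes (long intergenic noncoding RNAs). By symbol or by 3 or more C2H2 finger matches in the translated transcripts, 71 are zinc finger genes: 22 on chromosome 2, 23 on chromosome 4, 26 on chromosome 13 and 0 on chromosome 8. The chromosome 8 window instead holds 18 defensin genes and pseudogenes, at its lower end except for Defb33 and AY761185 at its upper end. Vomeronasal receptor (Vmn2r) pseudogenes number 11 on chromosome 13 and 6 on chromosome 4, and 4 Cbx3 pseudogenes, copies of a heterochromatin protein gene, lie on chromosome 13. A further 113 genes of none of these families have at least 50% of their 30-base exon stretches elsewhere among annotated exons and promoters, 83 genes have fewer, and 2 are tumour necrosis factor receptor (Tnfrsf) genes on chromosome 4. The zinc finger genes had a median of 83.0% of such stretches elsewhere.

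How much of the windows is repeated was measured on annotated bases only, since no genome sequence was at hand. A stretch of 30 bases from an exon or promoter was also found elsewhere, on either strand, for 79.4% of stretches in the chromosome 2 window, 51.3% on chromosome 13, 50.2% on chromosome 4 and 34.6% on chromosome 8. The flanks gave 11.4% together, against 51.4% for all windows. The flank nearest in content was the lower one of chromosome 2, at 35.3%. In the upper flanks of chromosomes 2 and 4 the share was 3.76% and 2.25%. The chromosome 8 value averages unlike parts, since the defensins had a median of 4.32% and the 18 other repeated genes of that window 94.3%.

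**Figure D3:**
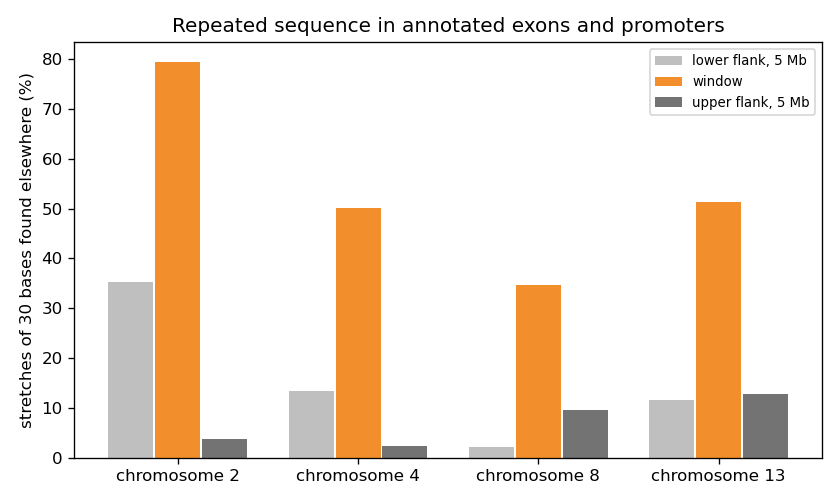
Share of 30-base stretches of annotated exons and promoters that occur elsewhere among annotated exons and promoters (vertical axis, percent), for each window (orange) and its lower and upper flanks (light and dark grey), where the upper flank of chromosome 2 covers 4.00 Mb. The windows reach 34.6% to 79.4%, and the flanks stay at or under 35.3%.

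The bodies of the zinc finger genes cover 1206.6 kb and hold 84 sites in 35 of the 71 genes, or 69.6 sites per Mb of body. By window the density was 86.4 on chromosome 4, 65.9 on chromosome 2 and 33.0 on chromosome 13, with 61, 13 and 10 sites. Of the 84 sites 67.9% had 1 read. The 37 coding members alone held 64 sites, or 72.0 per Mb. Of these, 54 were on chromosome 4 (80.8 per Mb) and 9 on chromosome 2 (53.4), whereas the 4 coding members on chromosome 13 held 1 site, or 19.2 per Mb. This density was not particular to zinc finger genes, but the gene groups share sites. The 113 other repeated genes held 123 sites, 65.2 per Mb of body, of which 88 were on chromosome 4. The 83 genes of no family with mostly unique exons held 93, or 58.8 per Mb. Both groups include long noncoding genes of chromosome 4 that overlap zinc finger genes, so a site can count in several groups. On chromosome 8, where no zinc finger gene lies, the 18 other repeated genes held 21 sites, or 134 per Mb. The Vmn2r pseudogenes held 29.1 per Mb, the Tnfrsf genes 12.3, and the defensin genes and Cbx3 pseudogenes 0.

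On chromosome 4 the zinc finger genes with the most sites were Zfp980 with 8 sites in 33.8 kb, the pseudogene Gm13147 with 7 in 29.1 kb, and Zfp984 with 6 in 55.8 kb. Gm13212, Zfp534 and Zfp600 followed with 5 each, and Rex2 with 4 in 38.9 kb. All 5 sites of Zfp600 and all 4 of Rex2 had 1 read, whereas neither of the 2 sites in Zfp992 and neither of the 2 in Zfp981 did. These 4 genes were picked after their values were seen.

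A smaller group of coding genes held few sites. Outside the zinc finger and defensin families, 26 coding genes had less than 50% of their exon stretches elsewhere. Their bodies cover 584.8 kb of the windows and held 7 sites, 12.0 per Mb, in 5 genes. The windows differed: the density was 5.63 per Mb on chromosome 4, from 2 sites, 24.6 on chromosome 13, from 5 sites, and 0 on chromosome 8, where these genes cover 26.4 kb. Mfsd14b, a membrane transporter gene on chromosome 13, held 3 sites with 5 reads. Vps13d, a lipid transfer protein gene, and Tnfrsf8, which encodes the receptor CD30, held 1 site of 3 reads each. Ptdss1, a phosphatidylserine synthase gene, held 1 site of 2 reads, and Olfr465-ps1 1 site of 1 read. Only 2 of these 7 sites had 1 read. All 7 sites lay outside the stretches from the first to the last 100 kb bin with 5 or more sites. Those stretches run from 145400001 to 147800000 on chromosome 4 and from 65900001 to 66900000 on chromosome 13. The value of 12.0 per Mb is therefore not a density of coding genes inside the dense blocks. With 7 sites in windows chosen for their density, this is a description of few sites.

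**Figure D4:**
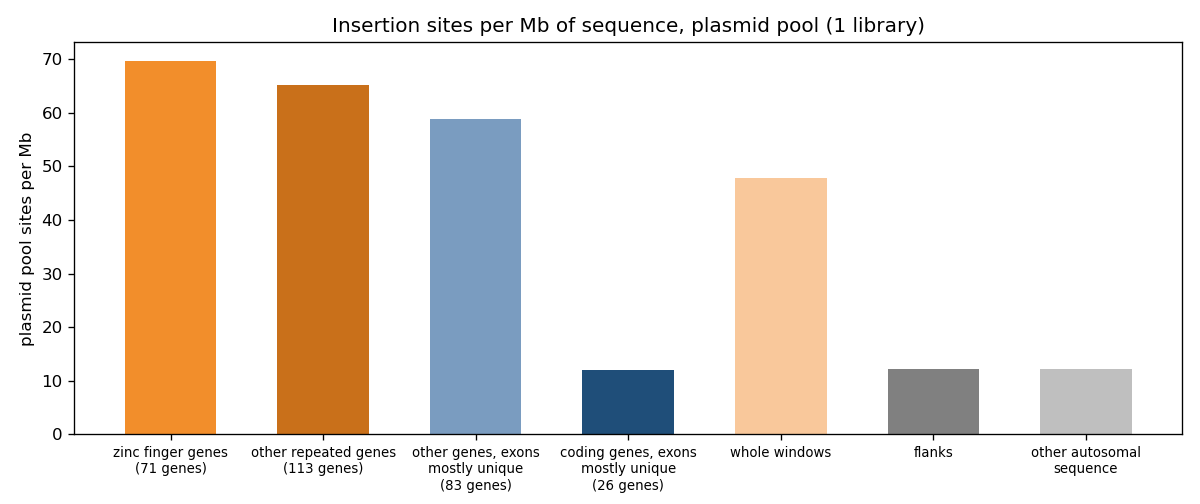
Plasmid pool sites per Mb (vertical axis), from 1 library with no error bar. The first bars are the bodies of the 71 zinc finger genes, the 113 other repeated genes and the 83 genes of no family with mostly unique exons. Next come 26 coding genes outside the zinc finger and defensin families whose exons are mostly unique, which overlap the group of 83. The last bars are the whole windows, the flanks and all autosomes outside the windows, flanks included. Zinc finger bodies hold 69.6 sites per Mb, other repeated genes 65.2 and the 83 genes with mostly unique exons 58.8. These groups share sites where gene bodies overlap. The 26 coding genes hold 12.0, next to 12.3 in the flanks and 12.1 on autosomes outside the windows. The sites of these 26 genes lie outside the dense blocks.

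Defensin genes held no site. Their 18 bodies cover only 54.5 kb, so a count of 0 says little. The 7 bins of 100 kb that make up the lower end of the chromosome 8 window, where all but Defb33 and AY761185 lie, held 0, 3, 0, 0, 1, 0 and 3 sites. The 13 bins above them held 12, 0, 7, 8, 5, 11, 8, 12, 14, 11, 0, 4 and 0. A site with 2 reads, at 19194020 on the minus strand, was 0.337 kb from Defb14. Vmn2r pseudogenes held 4 sites, all on chromosome 13 and all with 1 read. The Cbx3 pseudogenes, which span 2.18 kb in all, held none.

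The genes with the most sites were long noncoding ones. On chromosome 4 the lincRNA gene Gm26573 (871.5 kb) held 46 sites with 87 reads, C230088H06Rik (474.0 kb) held 44 with 65 reads, Gm26624 (320.7 kb) held 30 with 47 and Gm26763 (110.0 kb) held 13 with 19. These bodies overlap each other and zinc finger genes in part, so a site can count in several of them. Per 100 kb they carried between 5.28 sites, in Gm26573, and 11.8, in Gm26763. On chromosome 8 Gm26804 (128.3 kb) held 21 sites, the transcribed pseudogenes 2610005L07Rik and 6820431F20Rik 11 and 8, the coding gene 4930467E23Rik 5 and Gm21092 3. In 2610005L07Rik this makes 28.2 sites per 100 kb.

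On chromosome 13 the lincRNA gene Gm26754 (207.0 kb) led with 6 sites, ahead of Mfsd14b and Platr2 with 3 each and the zinc finger loci Gm36445 and Gm48165 with 2 each. On chromosome 2 no gene held more than 2: Zfp970 and the pseudogene Gm14324 had 2 sites each, and Gm14412, Gm14410 and Gm14401 had 1 each. All 5 are zinc finger genes, as are 22 of the 29 genes of that window. Others of the 12 genes with a site also held 1, and ties were broken by reads and then position. Gm14412 (9.79 kb) carried the best-supported site of that window.

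The share of sites inside any annotated gene was 58.4% (53.3 to 63.4) in the windows and 54.2% (49.6 to 58.7) in the flanks (Fisher's exact test, adjusted p = 0.286), where genes cover 47.7% and 52.4% of bases. On chromosome 4 it was 75.1% against 54.2% (exact test, adjusted p = 0.00121), with genes on 72.5% of window bases. In the exact test that call was lost for sites of 2 or more reads (12.6 points, adjusted p = 0.454) and for those of 5 or more (25.0 points, adjusted p = 0.730). On chromosome 8 it was 50.5% against 66.4% (exact test, adjusted p = 0.0597), although genes cover only 25.0% of that window. With the chromosome 2 or the chromosome 13 window left out, the exact test gave an adjusted p = 0.0478 for chromosome 8. Its difference shrank to -4.07 points for sites of 2 or more reads and -4.67 points with flanks of 10 Mb (exact test, adjusted p = 0.772 and 0.463). Chromosomes 2 and 13 had 30.4% and 45.3% against 40.2% and 57.3%, which did not pass the test. With flanks of 2 Mb, the chromosome 13 difference did pass it (-24.9 points, exact test, adjusted p = 0.0159). The pooled difference became -9.67 points without the chromosome 4 window and 10.5 points without the chromosome 8 window (exact test, adjusted p = 0.0594 and 0.0176).

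The result turned when only protein-coding genes were counted. Coding genes held 86 window sites, 22.5% (18.4 to 27.0), and 221 flank sites, 46.2% (41.7 to 50.8), a difference of -23.7 points (exact test, adjusted p = 8.54e-13). On chromosome 4 the direction turned, to 32.9% against 46.6% (-13.7 points, exact test, adjusted p = 0.0253), and on chromosomes 8 and 13 the differences were -49.5 points (adjusted p = 4.71e-13) and -35.7 points (adjusted p = 4.78e-07). On chromosome 2 the difference of -11.0 points did not pass the exact test (adjusted p = 0.189). They also cover less of the windows, 20.5% of bases against 44.1% in the flanks. Per Mb, window sites numbered 52.4 in coding genes and 46.5 elsewhere, and flank sites 12.9 and 11.8. By feature, 201 window sites lay in introns, 159 between genes, 20 in noncoding exons and 2 in coding exons.

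The 3 best-supported sites of each window lay in introns or between genes. On chromosome 4 the site at 146464746 (plus strand, 10 reads) was in introns of Zfp992 and Gm26573, that at 145580852 (minus, 8 reads) lay between genes, 1.68 kb from Gm13222, and that at 146229077 (minus, 6 reads) was in an intron of Gm26573. On chromosome 2 the site at 177317153 (plus, 8 reads) was in an intron of Gm14412, that at 177186111 (minus, 4 reads) in an intron of Gm14410, and that at 177240502 (plus, 3 reads) 11.5 kb from Gm14400. On chromosome 13 the site at 65237946 (plus, 7 reads) lay 3.81 kb from Gm36445, that at 66175212 (minus, 4 reads) 2.13 kb from Gm48223, and that at 66865094 (plus, 4 reads) 0.022 kb from Cbx3-ps4. On chromosome 8 no site exceeded 4 reads, reached at 20847848 (minus), 5.50 kb from Gm20797. Next by the naming rule came 19161865 (plus, 2 reads), 1.66 kb from Gm39139, and the site near Defb14.

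Sequence was known around 22 of the 382 window sites, 20 of them with 1 read, and around 32 flank sites, all in annotated exons or promoters. At 12 of the 22 window sites, 54.5% (32.2 to 75.6), the 30 bases centred on the site occurred more than once, against 5 of 32 flank sites, 15.6% (5.28 to 32.8; Fisher's exact test, p = 0.00347). Of 1457 such sites outside the windows, 165 (11.3%) had a copy. In the same exact test the call was lost with flanks of 2 Mb (25.1 points, p = 0.193), without the chromosome 13 window (31.0 points, p = 0.0725) and with at least 2 reads per site, which left 1 of 2 window sites against 1 of 17 (p = 0.205). These shares lie near those of all annotated 30-base stretches, 51.4% in the windows and 11.4% in the flanks. The contrast is therefore not read as a result about the sites. The 22 sites are not a sample of the rest, which lie in introns and between genes.

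The site in Zfp970, a coding exon, had the most copies. Its middle 30 bases occur 188 times, and its whole 50 bases 13 times. The other coding-exon site, in Zfp984 at 147754923, has 7 copies of both. Both stretches hold the run catacaggagagaaacc, 17 bases long, which in Zfp970 contains the TA at the site. By contrast the Gm36445 stretch printed above, whose site had 2 reads, occurs once. All 3 chromosome 8 sites with known sequence, in Gm26853, Gm20796 and the overlapping 6820431F20Rik and Gm26804, also occur once, with 1 read each.

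A site shared its oriented 30-base stretch with another plasmid pool site in 6 of 22 cases in the windows, the 3 pairs printed above. This happened at 2 of 32 flank sites and 72 of 1457 sites outside the windows. The target dinucleotide was common in all parts, with overlapping intervals. A TA stood exactly at 18 of the 22 window sites (81.8%, 59.7 to 94.8) and 26 of 32 flank sites (81.3%, 63.6 to 92.8). Of the 1457 sites outside the windows, flank sites included, 71.8% had one.

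The remobilized pool, which the choice of windows did not use, had 5 sites in the windows and 6 in the flanks of 746. On chromosome 4, 1 site at 145861708 (minus strand, 3 reads) lay 7.09 kb from Zfp986, and 2 sites less than 1 kb apart, at 147227624 (plus, 4 reads) and 147228101 (minus, 1 read), lay in introns of C230088H06Rik and Gm26624. On chromosome 8 the site at 19316174 (plus, 1 read) lay 11.4 kb from Defa-ps13. On chromosome 13 the site at 66237480 (minus, 6 reads) lay 3.30 kb from Gm48241. The chromosome 2 window had none, beside 3 in its flanks.

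Of the window and flank sites of the remobilized pool, 45.5% (16.7 to 76.6) of 11 fell in the windows, against 44.4% (41.1 to 47.8) of the 860 of the plasmid pool (p = 1, Fisher's exact test, two-sided). The plasmid pool's share is the one for which the windows were chosen, and with 11 sites the interval is wide, so nothing is read from this comparison and it does not show that the pools are alike. Sites per Mb were 0.625 in the windows and 0.154 in the flanks. The windows make up 17.0% of the sequence compared, and a two-sided exact binomial test against that share, added after the data were seen, gave p = 0.0267 with merging within 10 bp. Merging within 1 kb, which joins the pair on chromosome 4 into 1 site, left 4 window sites and gave an exact p = 0.0744. None of the 5 lay within 1000 bp of a plasmid pool site, and 3 lay within 10000 bp, all on chromosome 4. Plasmid pool sites of that window lay a median of 7.95 kb apart, so many positions there have one within 10000 bp. The share of all positions was not computed, and nothing is read from these counts. When all sites off chromosome 6, the chromosome that carries the insertions after which the clones are named, were counted instead, the windows held 5 of 502 sites, 0.996% (0.324 to 2.31), and 1.30% (1.17 to 1.44) of the plasmid pool, the latter again raised by the choice of windows.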

How the data were processed

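The authors deposited, per the labels' protocols, 1 list per library of insertion positions found from RNA made on purified genomic DNA, and each line gives a position, a strand and a read count. The deposited counts are whole numbers with no normalization stated, and whether 1 count is a read or a mate of a pair is not given in the sources used here. The submitters' processing notes name mm10, BWA, FastQC and deepTools, with no role or version. How reads with several equal matches were placed is not given in the sources used here.

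Lines within 10 bp on either strand were merged and placed at the line with the most reads, with no minimum of reads. The members and lists were chosen with earlier results of these data known. Of 13 samples, 12 libraries were read, and a replicate was not available for any group. Genes come from GENCODE M21, and promoters (250 bases before to 50 after a start) from RefSeq, GRCm38.p6. With no genome sequence at hand, copies of 24, 30 or 50 bases were looked up among annotated exons and promoters on both strands. Zinc finger genes without a telling symbol were found by 3 or more C2H2 matches in translated transcripts, since no protein table was used, which departs from the planned rule. The rule for named genes took, in each window, the 5 genes with the most sites, the 3 sites with the most reads and the genes holding remobilized sites; genes named beyond it were chosen after their values were seen.

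Shares were compared between window and flank sites by two-sided Fisher's exact tests, and the 2 strands with an even split by exact binomial tests (two-sided), with Benjamini-Hochberg adjustment over 5 tests and a threshold of 0.05. Intervals are 95% exact Clopper-Pearson intervals. Merging and tests were checked on simulated data. Alternatives were other merging distances, read minimums, flanks, gene sets and stretch lengths, and the leaving out of each window. Python 3.11.15, numpy 2.4.6, scipy 1.17.1 and matplotlib 3.10.9 were used.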

Additional observations from a re-analysis of the deposited data

How the results depend on the processing

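The pooled excess of 1-read sites kept its call under the 10 alternatives that measure it, at 17.5 to 30.1 points, with a largest adjusted p of 1.49e-05 in the exact test, and the excess of sites with 2 or fewer reads was 9.40 points (adjusted p = 0.000383). The 382 sites became 117 with at least 2 reads, 6 with at least 5 and 209 without the chromosome 4 window. The excess inside genes (4.19 points) became -9.67 without the chromosome 4 window, -23.7 with protein-coding genes only (-13.7 on chromosome 4, exact test, adjusted p = 0.0253) and 10.5 without the chromosome 8 window (exact test, adjusted p = 0.0176). On chromosome 2 it was 83.3 points at 5 or more reads, from 1 window site. The departure of the plus strand from equal shares (0.524 points) became -2.99 with at least 2 reads and -1.26 without the chromosome 13 window.

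The window share of the remobilized pool less that of the plasmid pool (1.04 points) became -2.95 with no merging, -2.45 with merging within 1 kb, -0.882 with flanks of 10 Mb, -8.16 and -3.27 without the chromosome 4 and 8 windows, and -0.304 against all sites off chromosome 6. It was 18.6 with at least 2 reads, 30 with at least 5, 13.9 without the chromosome 2 window and 6.24 with flanks of 2 Mb. None of these passed the threshold. Set against the share of the span, an alternative added after the data were seen, it was 28.4 points (exact binomial p = 0.0267), and 23.0 points with merging within 1 kb (p = 0.0744). The copy difference (38.9 points) was 44.1 with at least 2 reads (exact test, p = 0.205), 25.1 with flanks of 2 Mb and 31.0 without the chromosome 13 window, and at 5 or more reads no window site had known sequence. The cause of these shifts was not tested, and only some of the alternatives leave fewer sites. No paired analysis was possible because each group had 1 library, so replicate numbers pair nothing. Most window and flank sites of the plasmid pool had 1 or 2 reads.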
